A study of Saccharomyces cerevisiae with 5 samples.

Results

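The actin patch and cable genes described here are 40 genes of Saccharomyces cerevisiae that encode actin, the Arp2/3 complex and the proteins that start, shape, cap, bundle or dismantle actin filaments. They were taken by name from a fixed list and matched to the gene spots of the array by gene name or systematic name. All 40 were found among the 6256 genes on the array, each read by 1 or 2 spots. In budding yeast, actin is arranged in cortical patches, which are short branched networks that drive the inward movement of endocytic vesicles, and in cables, which are bundled tracks along which myosin V carries secretory vesicles, organelles and messenger RNAs into the bud. Patches are built by the Arp2/3 complex under nucleation promoting factors, and cables by formins, and both gather at the bud neck when the cell divides. Chitin synthase II, the product of CHS2, lays down the primary septum at that neck.

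Messenger RNA of a chs2Δ strain and of its wild-type parent was compared to ask how transcription changes when the primary septum is not made. The wild type was MGD353-46D, a haploid of mating type α, and the chs2Δ strain was YFR23, in which chs2 was replaced by a KANR cassette in that parent. Both carried trp1-289, ura3-52, his3delta1 and a leu2 allele together with ADE+, ARG and cyhR, and both were grown at 26 °C. Single strains were used, so any other difference between them cannot be told apart from the deletion. Hybridization was to 5 arrays, each with labelled RNA from 1 culture of each strain, on 3 slides, with replicates 2 and 3 sharing a slide and replicates 4 and 5 another. The dyes were exchanged between arrays, with chs2Δ RNA in Cy5 on 3 of them and in Cy3 on 2. The protocols call the 5 cultures biological replicates. Every p-value rests on the spread between these arrays. In the limma fit, which also gave each SE below, the spread of a gene was drawn toward that typical of all genes. These values are thus not the plain spread of 1 gene over its 5 arrays. The sample titles name YJR6, the myo1Δ strain, whereas the source fields name YFR23, and the source fields were followed here. The CHS2 log2 ratio was -0.35, -0.56, -0.95, -1.63 and -0.58 in replicates 1 to 5, and CHS2 read above background in chs2Δ on 4 arrays. MYO1 was lower as well, with a log2 ratio of -0.31 ± 0.06 (SE) after loess, and read above background in chs2Δ on all 5 arrays.

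The median net signal of an array lay between 77.5 and 197 for chs2Δ RNA and between 213 and 431 for wild-type RNA. Of the gene spots, 73.9 to 83.2% were above background in chs2Δ and 89.1 to 94.3% in wild type. All 4 α cell markers (STE3, MF(ALPHA)1, MF(ALPHA)2 and SAG1) were called lower, with log2 ratios of -2.11 to -2.53 after loess, and 3 of them were above background in both strains on all arrays. Their log2 ratios after median centring were -2.83 to -3.17, with the same calls. Of 6 a cell markers, STE2, BAR1 and MFA1 were above background in chs2Δ on 0 arrays, MFA2 on 2, AGA2 on 3 and STE6 on all 5. In wild type STE2 and BAR1 were above background on 2 arrays, MFA2 on 1, MFA1 and AGA2 on 4 and STE6 on all 5. STE6 was called higher at a log2 ratio of 0.91 and the other 5 were not called after loess, whereas all 6 were called higher after median centring, with a median of 0.80. Over the dimmest of 4 brightness classes of all genes, the log2 ratio rose by a median of 0.58 from loess to median centring. The part of mating type gene expression in the results below was not tested. In RNA of whole cultures, fewer cells of a type and less RNA per cell cannot be told apart.

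A log2 ratio here is that of chs2Δ over wild type, so 1 is a doubling. A pair of scalings of the same spots is given throughout. The main one fits a loess curve of the ratio on the brightness of the spots of each array and thereby sets the typical ratio to 0 at every brightness. The other, median centring, shifts each array by 1 constant. Before any scaling the wild-type signal was the brighter one in all but 1 of 200 readings of the 40 genes, the exception being a reading of ARK1. A gene was called when its adjusted p in the limma fit across all genes was below 0.05.

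After loess, 21 of the 40 genes (52.5%) were called higher in chs2Δ, 8 (20%) lower and 11 (27.5%) were not called. Over all 6241 genes tested the shares were 35.7% higher and 36% lower, 71.6% in either direction, so the 29 called genes (72.5%) were near the share of all genes. The median log2 ratio of all 40 genes, called or not, was 0.19, against -0.0061 over all genes. The median size of the log2 ratio, regardless of sign, was 0.33 for the 40 genes and 0.35 for all genes. ENT2 alone (2.5% of the 40) changed at least 2-fold after loess, compared with 15.6% of all genes, and END3 and BZZ1 (5%) did so after median centring, both lower, compared with 22.1%. After median centring the picture turned over, with 9 genes called higher, 21 lower and 10 not called, and a median log2 ratio of -0.31. The shares over all genes were then 41.6% higher and 41.5% lower, 83.1% in either direction.

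**Figure D1:**
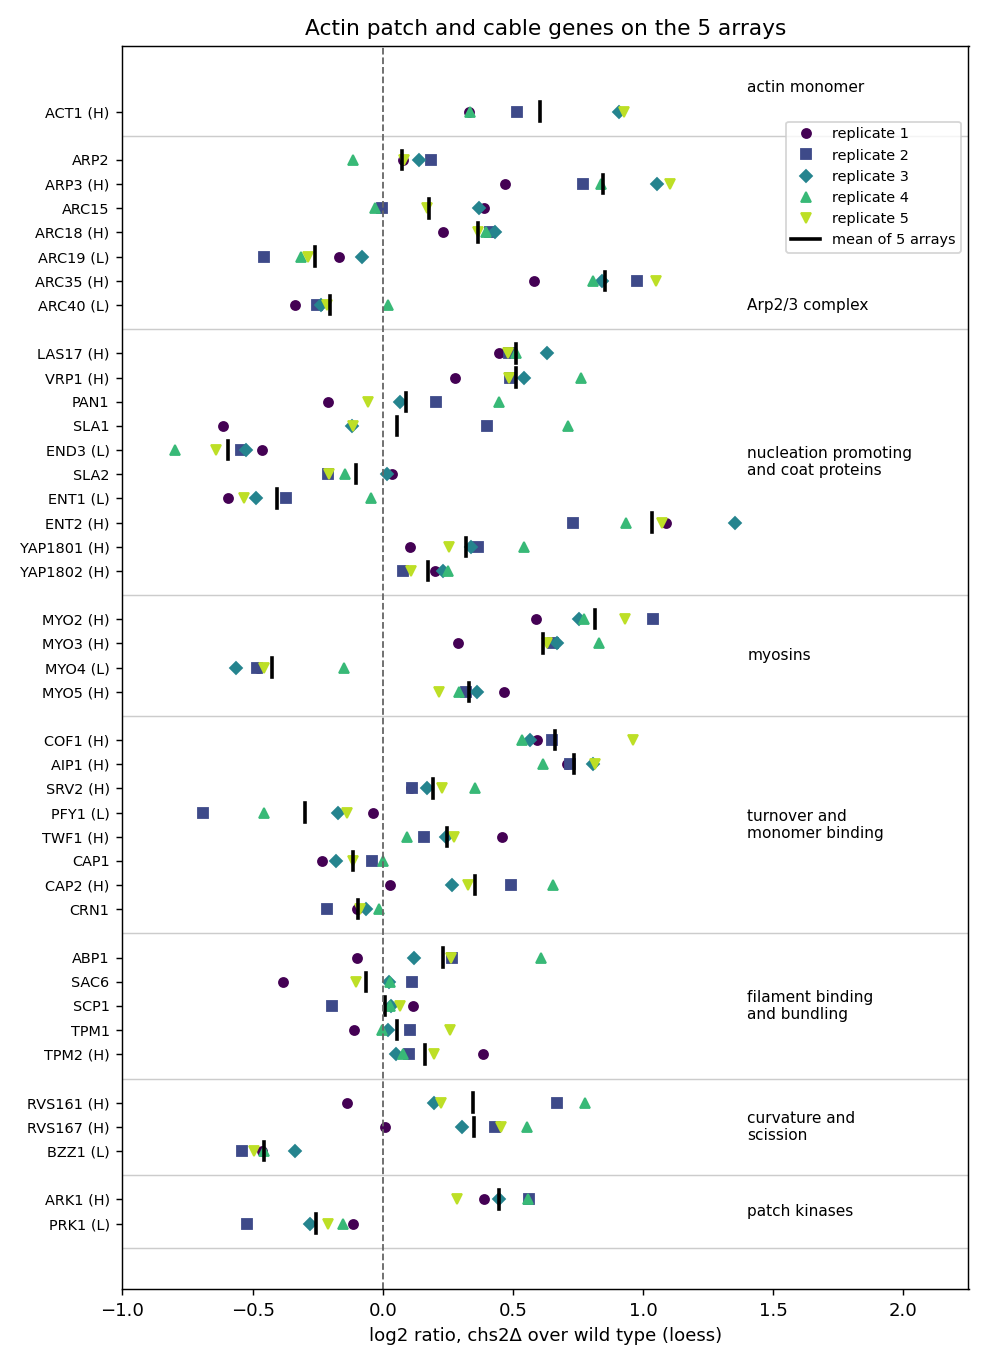
Log2 ratio of chs2Δ over wild type after loess for each of the 40 genes (rows, grouped by role) on each of the 5 arrays (symbols), with the mean as a black bar. H and L mark the 21 genes called higher and the 8 called lower by limma after loess. ENT2 lies farthest to the right at a mean of 1.04 and END3 farthest to the left at -0.59. After median centring 6 of the calls have the opposite direction.

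Bright spots moved down and dim spots moved up between the scalings, and these genes are mostly bright. When all genes were split by brightness into 4 classes of equal size, 22 of the 40 fell in the brightest class and 2 in the dimmest. The median change of the log2 ratio from loess to median centring was -0.67 in the brightest class and 0.58 in the dimmest. Of the 40 genes, 36 moved down and 4 moved up, from -0.92 for ACT1 to 0.56 for PRK1. A total of 15 of the 40 (37.5%) kept 1 direction of call under both scalings, against 54.8% of all genes. The 8 called higher under both were ARC18, VRP1, ENT2, YAP1801, YAP1802, MYO3, TWF1 and ARK1 (20%, against 25.4% of all genes). The 7 called lower under both were ARC19, ARC40, END3, ENT1, MYO4, PFY1 and BZZ1 (17.5%, against 29.4%). Another 6 (15%, against 5.11%) were called in opposite directions, namely ACT1, SRV2, TPM2, RVS161, RVS167 and PRK1.

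**Figure D2:**
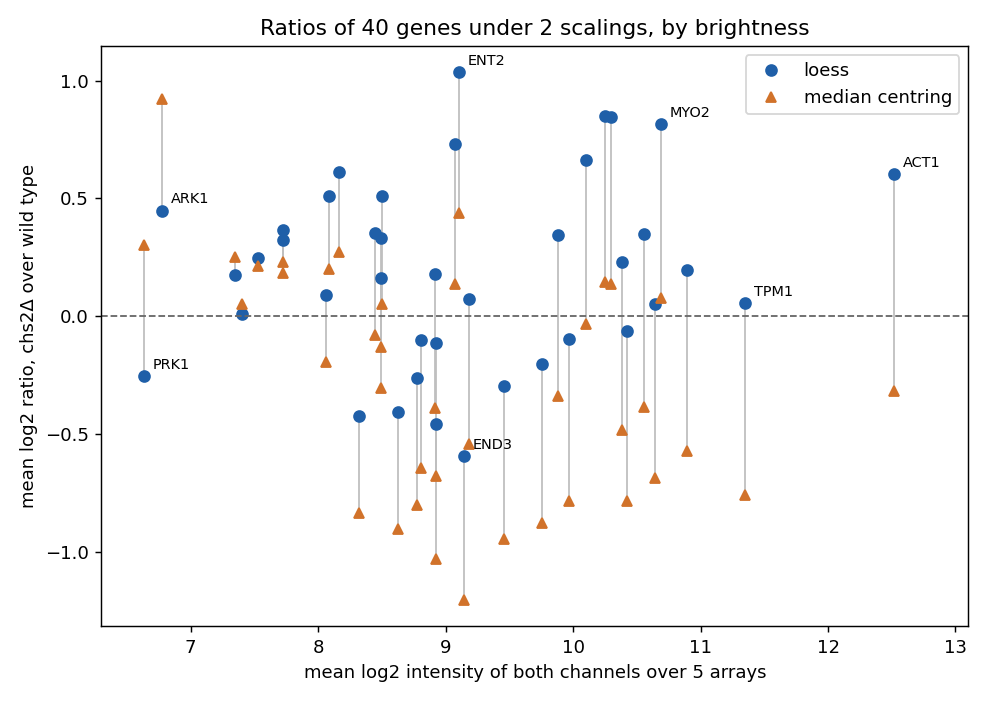
Mean log2 ratio of chs2Δ over wild type (vertical axis) of each of the 40 genes after loess (circles) and after median centring (triangles), joined by a line, against the mean log2 intensity of both channels over the 5 arrays (horizontal axis). The dimmest genes, ARK1 and PRK1, move up from loess to median centring, and the bright genes move down, ACT1 furthest (by -0.92, from 0.60 to -0.32).

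ACT1 (YFL039C) encodes the only conventional actin of budding yeast and is often used as a reference gene for RNA measurements. Its log2 ratios after loess were 0.33, 0.51, 0.91, 0.33 and 0.93 in replicates 1 to 5, above 0 on every array. The mean was 0.60 ± 0.11 (SE), a 1.52-fold increase (adjusted p = 9.9e-04, limma). After median centring the same spots gave -0.55, -0.24, -0.13, -0.62 and -0.05, below 0 on every array, with a mean of -0.32 (0.802-fold, adjusted p = 0.0131, limma). The net signal behind these ratios was 13400, 10900, 10200, 11400 and 6060 in wild type and 2930, 5520, 3640, 2340 and 3360 in chs2Δ. The wild-type signals were thus above every chs2Δ signal, and the direction of ACT1 was set by the scaling.

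The Arp2/3 complex nucleates a new filament as a branch on an existing one, and its 7 subunits were called in both directions. After loess 3 (42.9%) were called higher, 2 (28.6%) lower and 2 were not called. The shares over all genes were 35.7% higher and 36% lower, and the 71.4% called in either direction were near the 71.6% of all genes. ARP3 and ARC35 had the highest ratios. ARP3 encodes one of the actin-related subunits that template the branch, and its log2 ratios were 0.47, 0.77, 1.06, 0.84 and 1.10. Its mean was 0.85 ± 0.09, or 1.80-fold (adjusted p = 6.3e-05), whereas median centring gave 0.14 and no call. ARC35, a subunit of the structural core, read 0.58, 0.98, 0.84, 0.81 and 1.05. Its mean was 0.85 ± 0.07, or 1.81-fold (adjusted p = 1.6e-05), and 0.15 without a call after median centring. ARC18, a smaller subunit, was the only one called higher under both scalings, at 0.37 ± 0.05 after loess and 0.23 after median centring.

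ARC19 and ARC40 were called lower under both scalings. ARC19, which forms the core with ARC35, read -0.17, -0.46, -0.08, -0.31 and -0.29, a mean of -0.26 (0.835-fold, adjusted p = 0.0067), and -0.80 after median centring. Its loess call was lost without background correction (-0.14, adjusted p = 0.0506 in limma) and on 1 of its spots (-0.21). ARC40, the subunit with a beta propeller fold, read -0.34, -0.25, -0.24, 0.02 and -0.21, a mean of -0.20 (adjusted p = 0.0183), and -0.88 after median centring. The ARC40 call after loess was lost when replicate 1, 2, 3 or 5 was left out, which gave -0.20 to -0.17 (adjusted p = 0.0528 to 0.063 in limma). It was also lost on 1 of the ARC40 spots (-0.12). ARP2, the other actin-related subunit, was at 0.07 and ARC15 at 0.18 after loess, without a call (ARC15 was called higher at 0.23 without replicate 4, at 0.17 without background correction, at 0.15 with a dye term and at 0.20 on 1 of its spots), and both were called lower after median centring (-0.54 and -0.39). Within each array the lower of ARP3 and ARC35 exceeded the higher of ARC19 and ARC40 by 0.64 to 1.27 on the log2 scale after loess and by 0.46 to 1.18 after median centring. These 4 subunits were chosen after their values were seen, so no test was made.

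Nucleation promoting factors switch on the Arp2/3 complex, and coat proteins gather cargo and link the membrane to actin. Of these 10 genes, 5 (50%) were called higher, 2 (20%) lower and 3 were not called after loess, against 35.7% higher and 36% lower over all genes. LAS17, the yeast homologue of WASP, read 0.45 to 0.63 and had a mean of 0.51 ± 0.05 (1.43-fold, adjusted p = 3.9e-05), but 0.05 and no call after median centring. VRP1, its verprolin partner, read 0.28, 0.49, 0.54, 0.76 and 0.49. Its mean was likewise 0.51, and it was also called higher after median centring, at 0.20. PAN1, a scaffold that activates Arp2/3, was called under neither scaling.

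SLA1, an adaptor that binds Las17p and cargo, was the most variable of the 40 genes over the arrays (SD 0.514). Its log2 ratios were -0.61, 0.40, -0.12, 0.71 and -0.11 after loess. Both arrays with chs2Δ RNA in Cy3 (0.40 and 0.71) were above the 3 with chs2Δ RNA in Cy5 (-0.61 to -0.11). The adjusted p of the dye term was 0.133 in limma. Its mean was 0.05 ± 0.17 and was not called, while median centring gave -0.69 and a call. SLA2, which couples the coat to filaments, was at -0.10 without a call after loess and was called lower after median centring at -0.65. On 1 of its spots SLA2 was called lower after loess as well (-0.16).

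END3, which acts in a complex with Pan1p and Sla1p, had the lowest ratio of the 40 genes. It read -0.46, -0.54, -0.52, -0.80 and -0.64, with a mean of -0.59 ± 0.06 (0.663-fold, adjusted p = 4.9e-05). All arrays were below 0, and median centring took it further down, to -1.21.

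The epsins ENT1 and ENT2, a paralogous pair of membrane-bending ubiquitin adaptors, moved apart. ENT2 read 1.09, 0.73, 1.35, 0.93 and 1.07, with a mean of 1.04 ± 0.09 (2.05-fold, adjusted p = 1.3e-05), and kept its call after median centring at 0.44. ENT1 read -0.59, -0.37, -0.49, -0.05 and -0.53, with a mean of -0.41 ± 0.08 (0.755-fold, adjusted p = 0.0024), and kept its call at -0.90. The pair was split the same way on every array. ENT1 lay below ENT2 by a mean of -1.44, from -1.84 to -0.98 after loess and from -1.76 to -0.86 after median centring. With 5 arrays the exact two-sided sign-flip test cannot go below p = 0.062, which this pair reached (0.125 adjusted over the 8 pairs tested). YAP1801 and YAP1802, the AP180-type clathrin adaptors, were both called higher, at 0.32 and 0.17 after loess and 0.18 and 0.25 after median centring. YAP1802 lost its loess call without replicate 3 (0.16). Their difference was 0.15 (-0.09 to 0.29, exact p = 0.125, adjusted 0.167) and turned to -0.07 after median centring.

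The set holds 4 myosin heavy chain genes, the class V motors MYO2 and MYO4 that travel on cables and the class I motors MYO3 and MYO5 of patches. After loess, 3 (75%) were called higher and MYO4 (25%) lower, against 35.7% and 36% of all genes. MYO2, the essential carrier of vesicles and organelles, read 0.59, 1.04, 0.75, 0.77 and 0.93. Its mean was 0.82 ± 0.07 (1.76-fold, adjusted p = 1.8e-05), and 0.08 without a call after median centring. MYO4, the motor of messenger RNA transport, read -0.48, -0.48, -0.56, -0.15 and -0.45. Its mean was -0.43 ± 0.07 (0.745-fold, adjusted p = 6.3e-04), and it kept its call after median centring at -0.84. MYO2 therefore stood above MYO4 on each of the 5 arrays, by 0.92 to 1.52 after loess and 0.58 to 1.21 after median centring (exact p = 0.062, adjusted 0.125).

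The class I pair went the same way after loess. MYO3 read 0.29, 0.65, 0.67, 0.83 and 0.63, with a mean of 0.61 (1.53-fold, adjusted p = 1.6e-04), and was called higher under both scalings (0.27 after median centring). MYO5 had a mean of 0.33 (1.26-fold, adjusted p = 7.0e-04) after loess and -0.13 without a call after median centring. MYO3 exceeded MYO5 on 4 of 5 arrays, by a mean of 0.28 with a range of -0.18 to 0.54 after loess (exact p = 0.125, adjusted 0.167), and likewise on 4 of 5 by a mean of 0.40 (-0.05 to 0.65) after median centring.

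**Figure D3:**
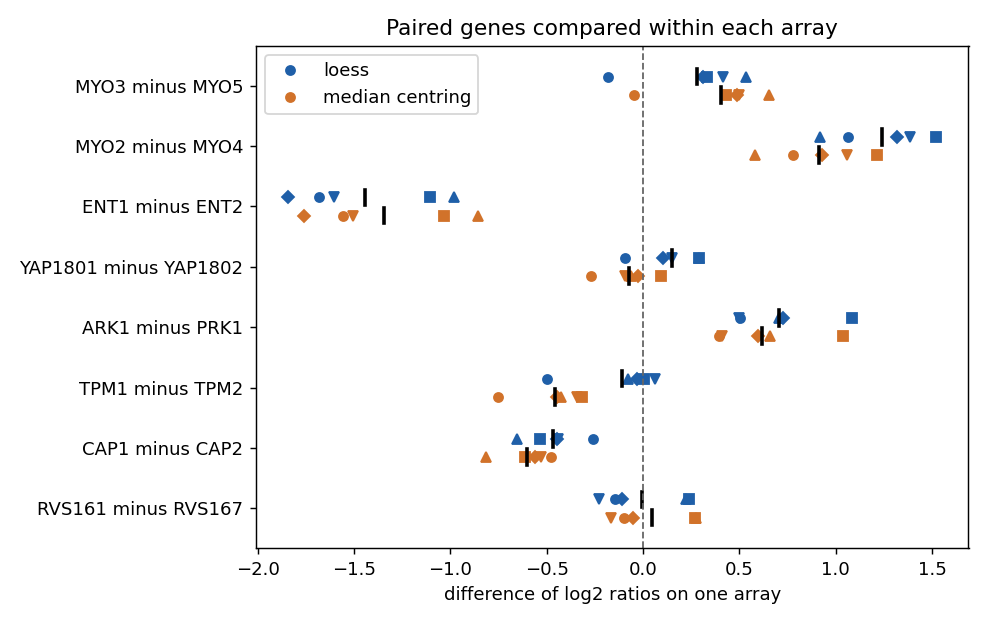
Difference between the log2 ratios of the genes of each of 8 paralogous or partner pairs (first minus second gene) within each array, after loess (blue) and after median centring (orange), where circle, square, diamond, upward and downward triangle stand for replicates 1 to 5 and black bars for the means. In 4 pairs all arrays lie on one side of 0 under both scalings. For 3 of them the loess means are -1.44 (ENT1 and ENT2), 1.24 (MYO2 and MYO4) and -0.47 (CAP1 and CAP2), while ARK1 and PRK1 give no measured difference because PRK1 was above background in chs2Δ on 0 arrays.

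Among the 8 genes of filament turnover and monomer binding, 5 (62.5%) were called higher, 1 (12.5%) lower and 2 were not called after loess. Over all genes the shares were 35.7% and 36%. COF1, cofilin, severs filaments. It read 0.59, 0.65, 0.57, 0.54 and 0.96, a mean of 0.66 (1.58-fold, adjusted p = 6.1e-05). AIP1, which works with cofilin, read 0.71, 0.72, 0.81, 0.62 and 0.82. Its mean was 0.73 ± 0.05 (1.66-fold, adjusted p = 5.9e-06), the smallest p of the 40 genes. Neither was called after median centring, where COF1 was at -0.03 and AIP1 at 0.13. TWF1, twinfilin, which binds monomers, was called higher under both scalings (0.25 and 0.21).

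PFY1, profilin, which readies monomers for assembly, was the 1 gene of the group called lower. It read -0.04, -0.69, -0.17, -0.46 and -0.14. Both Cy3 arrays (-0.69 and -0.46) lay below the Cy5 arrays, and the mean was -0.30 (0.813-fold, adjusted p = 0.0230), and -0.95 after median centring. Its loess call was lost without replicate 2 (-0.20) or 4 (-0.26), without background correction (-0.21) and with the slide as the replicate (adjusted p = 0.0534 in limma). SRV2, the cyclase-associated protein that recycles monomers, read 0.11, 0.11, 0.17, 0.35 and 0.23. It was called higher after loess at a mean of 0.20 (adjusted p = 0.0135) and lower after median centring at -0.57. Its loess call was lost with a normexp offset of 0 (adjusted p = 0.06) and with the slide as the replicate (adjusted p = 0.0553, limma). CRN1, coronin, was at -0.10 without a call, and was called lower at -0.79 after median centring. On 1 of its spots CRN1 was called lower after loess as well (-0.19).

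CAP1 and CAP2 encode the subunits of the heterodimer that caps the growing end of filaments. CAP2 read 0.03, 0.49, 0.27, 0.66 and 0.33 after loess. It was called higher at a mean of 0.35 (adjusted p = 0.0067), and stood at -0.08 without a call after median centring. CAP1 was at -0.11 without a call after loess and was called lower at -0.68 after median centring. On 1 of its spots CAP2 was not called (0.30), and CAP1 was called lower with a normexp offset of 0 (-0.20) and on 1 of its spots (-0.23). CAP1 lay below CAP2 on every array, by -0.65 to -0.26 with a mean of -0.47 after loess and -0.60 after median centring (exact p = 0.062, adjusted 0.125).

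The filament binding and bundling proteins were the group with the fewest calls after loess, at 1 of 5 (20%, against 71.6% of all genes). ABP1, an actin-binding protein that marks patches, read -0.10, 0.27, 0.12, 0.61 and 0.26. Its mean of 0.23 was not called (adjusted p = 0.0530), although it was called higher without replicate 1 (0.31), with a dye term, with the slide as a random block and from the deposited ratios, and lower after median centring at -0.48. SAC6, fimbrin, read -0.38, 0.11, 0.02, 0.03 and -0.10, a mean of -0.06, and the tropomyosin gene TPM1, whose product coats cables, had a mean of 0.05. Both were without a call after loess and both were called lower after median centring (-0.78 and -0.76). TPM2, the minor tropomyosin, read 0.38, 0.10, 0.05, 0.08 and 0.20. It was called higher at a mean of 0.16 (adjusted p = 0.0465) and lower after median centring at -0.31. Leaving out replicate 1, 2, 3 or 5 lost its loess call, with values of 0.11 to 0.19, as did a normexp offset of 0, a dye term, stricter spot flags and the slide as the replicate (adjusted p = 0.0508 to 0.155 in limma). SCP1, a calponin-like bundling protein, was called under neither scaling. TPM1 and TPM2 differed by -0.11 (-0.50 to 0.06, exact p = 0.375, adjusted 0.429) after loess. After median centring TPM1 was below TPM2 on all 5 arrays, by a mean of -0.46.

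RVS161 and RVS167, amphiphysin-like partners that bend the membrane at the neck of the vesicle, had nearly the same mean. RVS161 read -0.14, 0.67, 0.20, 0.78 and 0.22, and RVS167 read 0.01, 0.43, 0.30, 0.55 and 0.45. Both means were 0.35 after loess (adjusted p = 0.0383 and 0.0047) and both were called lower after median centring (-0.34 and -0.38). Their difference ranged from -0.23 to 0.24 over the arrays. RVS161 had the same dye split as SLA1, with 0.67 and 0.78 on the Cy3 arrays against -0.14 to 0.22 on the Cy5 arrays (adjusted p of the dye term 0.133 in limma). Its loess call was lost when replicate 2, 3, 4 or 5 was left out, which gave 0.24 to 0.38 (adjusted p = 0.0587 to 0.136 in limma), and on 1 of its spots (0.36). With the slide as the replicate neither call held (adjusted p = 0.143 for RVS161 and 0.0588 for RVS167 in limma), and with a normexp offset of 0 that of RVS161 was lost (0.0899). BZZ1, an F-BAR protein that binds Las17p, went the other way. It read -0.46, -0.54, -0.34, -0.46 and -0.49, a narrow range, with a mean of -0.46 ± 0.05 (0.728-fold, adjusted p = 8.0e-05), and -1.03 after median centring.

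The related kinases ARK1 and PRK1 phosphorylate coat proteins and release them from the patch. Their spots were the dimmest of the 40 genes. ARK1 read 0.39, 0.56, 0.45, 0.56 and 0.29, with a mean of 0.45 ± 0.06 (1.36-fold, adjusted p = 1.9e-04), and 0.92 after median centring. Its chs2Δ signal was above background on 4 arrays. PRK1 read -0.12, -0.52, -0.28, -0.15 and -0.21. Its chs2Δ signal was above background on 0 arrays, so its ratio is a bound and not a measured value. The limit on each array was the dimmest signal above background of any gene spot, or the PRK1 signal where higher. Against that limit chs2Δ was 1.09-fold lower after loess. The background limit of the PRK1 spot itself was not used. The bound itself was not tested. The call after loess (adjusted p = 0.0099, limma) belongs to the fitted ratio, whereas median centring gave a call in the other direction at 0.30. A difference between ARK1 and PRK1 is therefore not given, although the pair is among the 8 over which p-values were adjusted.

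The arrays shared these differences unevenly. Of the 29 called genes, 27 had 1 direction on all 5 arrays after loess, the exceptions being ARC40 and RVS161. A call itself rests on agreement between the arrays. With uncalled genes included, 28 of the 40 had 1 direction on all arrays, as did 4440 of the 6241 genes tested. Replicate 1 was the lowest array for 21 of the 40 genes and replicate 4 the highest for 16 after loess. After median centring replicate 1 was the lowest for 19 and replicate 4 the lowest for 15. The lowest and highest arrays were not counted over all genes, so these counts cannot be called particular to the 40. The median log2 ratio of the 40 genes was 0.09, 0.19, 0.18, 0.31 and 0.22 in replicates 1 to 5 after loess and -0.40, -0.16, -0.24, -0.26 and -0.21 after median centring. Of the 40 genes, 8 (20%) had an unadjusted dye p below 0.05, near the 20.7% of all genes, and none passed adjustment in limma, nor did any other gene. Both shares were above the 0.05 that the threshold alone would give. The source of that excess was not tested.

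Other genes of the same structures were counted with the same test. Of 21 further endocytic patch genes, 9 (42.9%) were called higher, 5 (23.8%) lower and 7 were not called after loess. Over all genes the shares were 35.7% and 36%. The median log2 ratio of the 21 genes was 0.03. The highest of these were LSB3 at 1.23 (2.34-fold, adjusted p = 1.9e-06) and its paralogue YSC84 at 1.01 (2.02-fold), both SH3 domain proteins that bind actin filaments, and both were also called higher after median centring (0.51 and 0.92). Clathrin light chain CLC1 (-0.29) and the AP-2 subunit APM4 (-0.44) were called lower under both scalings.

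Of 11 genes for formins, the polarisome and cable-associated proteins, 3 (27.3%) were called higher, 6 (54.5%) lower and 2 were not called after loess, with a median of -0.21. The formins BNI1 and BNR1, which build cables, went opposite ways. BNI1 was at 0.93 (1.91-fold, adjusted p = 1.2e-06) after loess and 0.31 after median centring, called higher both times, and BNR1 was at -0.35 and -0.20, called lower both times. Its chs2Δ signal was above background on 3 arrays. The polarisome genes PEA2 (-0.71) and BUD6 (-0.52) and the filament-binding ABP140 (-0.72) were called lower under both scalings, as was SHE3 (-0.41), the adaptor between Myo4p and its messenger RNA cargo. SPA2, the polarisome scaffold, was called higher at 0.49 after loess and lower at -0.25 after median centring. Together these 32 genes gave 12 called higher (37.5%) and 11 lower (34.4%) after loess, near the 35.7% and 36% of all genes. After median centring they gave 9 higher (28.1%) and 19 lower (59.4%), against 41.6% and 41.5% of all genes.

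Of the 8 actin-related proteins outside Arp2/3, which act in chromatin remodelling or in dynactin, ARP5 was called higher at 1.12 (2.17-fold) and 5 were called lower, down to -0.67 for ARP7. The shares were 12.5% higher and 62.5% lower, against 35.7% and 36% of all genes. The tubulin genes also split. TUB1, one α-tubulin gene, was at 1.27 (2.41-fold) and TUB3, the other, at -0.73 (0.605-fold) after loess, and both kept their direction after median centring. The β-tubulin gene TUB2 was called higher at 0.49 after loess and lower at -0.32 after median centring. TUB4 was called lower under both scalings, at -0.91 after loess and -0.82 after median centring. Its chs2Δ signal was above background on 2 arrays.

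Since ACT1 is a usual reference, 7 other genes used for that purpose were set beside it. All 7 were called after loess, against 71.6% of all genes, with 2 (28.6%) higher and 5 (71.4%) lower. PDA1 (0.86, 1.82-fold) and ALG9 (0.79, 1.73-fold) were called higher after loess and not called after median centring (0.05 and 0.15). TAF10 (-0.65), UBC6 (-0.38), TFC1 (-0.46), TDH3 (-0.77) and PGK1 (-1.20, from the 2 arrays with a usable spot) were called lower under both scalings. ACT1 was the only one of the 8 that was called in opposite directions.

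**Figure D4:**
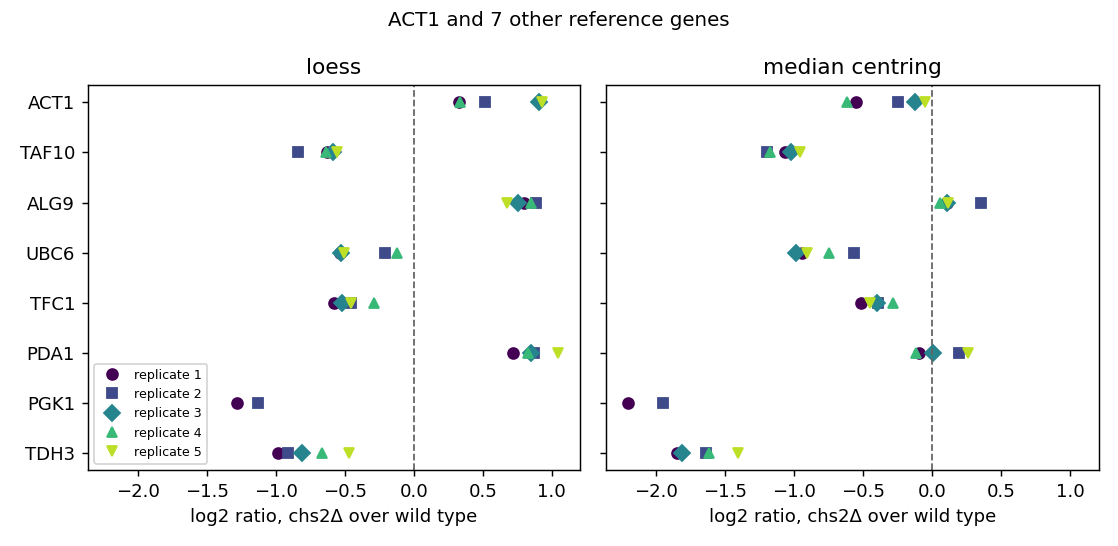
Log2 ratio of chs2Δ over wild type of ACT1 and 7 other genes used as references on single arrays (symbols), after loess in the left panel and after median centring in the right one, with PGK1 read on 2 arrays. All ACT1 values lie above 0 after loess and below 0 after median centring, with means of 0.60 and -0.32, the means of PDA1 and ALG9 go to 0.05 and 0.15, and TAF10, UBC6, TFC1, PGK1 and TDH3 lie below 0 on every array in both panels.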

How the data were processed

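The authors scanned 5 two-colour arrays of chs2Δ and wild-type RNA and quantified them with ImaGene (version 6.0.0 in the file headers, an earlier one in the methods). The deposited scanner files hold the spot intensity, local background and flags, with no correction applied. The authors also deposited log2 ratios, corrected for background and lowess-normalized in limma, which served as an alternative. A genome build and probe positions were not given in the sources used here.

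Computation was done in R 4.3.3 together with the packages limma (3.58.1), statmod (1.5.0) and jsonlite (2.0.0). Poor spots (115 to 261 per array) were left out, background was corrected with normexp (offset 50), and a loess curve (span 0.3) was fitted per array, or the array median was subtracted in the second scaling. Every ratio was expressed as chs2Δ over wild type, and the spots of a gene were averaged. Of the 40 genes, 14 had 1 spot and 26 had 2. Of the 6256 genes on the array, 5756 matched a reference table. The limma fit (lmFit, then eBayes) used the 5 arrays, with Benjamini-Hochberg adjustment over 6241 genes. The scripts were tested on simulated data in which the channels differed by a constant factor at every brightness. That test therefore does not bear on the choice of scaling. Because an array carries both strains, its ratio is already a paired value. Signals more than 2 SD over the local background median counted as above background. None of the 40 genes was saturated, and 38 were above background in chs2Δ on all arrays. Scan time was not used as a batch, and the slide was tried as a block. The precision is limited by the number of arrays. For PRK1 the lower bound of the fold compares the wild-type mean with the mean of, per array, the higher of the dimmest signal above background and its own chs2Δ signal. The dimmest signal is that of any gene spot on the array. For this bound alone, spot brightness was also quantile-normalized between arrays after loess.

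Pairs of genes were compared by an exact two-sided sign-flip test over arrays, adjusted over 8 pairs. Alternatives were other background corrections, median centring, equal spread of the arrays, dye orientation as a covariate, slides as random blocks, slide means as replicates, stricter spot flags, dim genes left out, the deposited ratios, the methods' threshold of 0.01, single spots, and leaving out each replicate. All 40 genes were named, with genes of the companion lists and CHS2 and MYO1 as label checks. Values are given in full for the extremes of each role group and for genes whose call turned with the scaling. The genes and lists were chosen with earlier results of these data known.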

Additional observations from a re-analysis of the deposited data

Results flagged for a closer look

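In 3 of the 40 genes 1 array lay far from the other 4 after loess. The criterion used is set so that chance alone flags about 1 in 20 such groups. MYO4 was at -0.15 in replicate 4, against -0.56 to -0.45 on the other arrays. COF1 was at 0.96 in replicate 5, against 0.54 to 0.65. SCP1 was at -0.19 in replicate 2, against 0.03 to 0.11.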

How the results depend on the processing

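Median centring in place of loess gave the largest changes. The genes called went from 21 higher and 8 lower to 9 higher and 21 lower, and the other patch and cable genes called lower from 11 to 19. The log2 ratio changed sign for 15 of the 40 genes, namely ACT1 (-0.32), ARP2 (-0.54), ARC15 (-0.39), PAN1 (-0.19, called under neither scaling), SLA1 (-0.69), MYO5 (-0.13), COF1 (-0.033), SRV2 (-0.57), CAP2 (-0.080), ABP1 (-0.48), TPM1 (-0.76), TPM2 (-0.31), RVS161 (-0.34), RVS167 (-0.38) and PRK1 (0.30), and for the difference of YAP1801 and YAP1802 (-0.071). That of RVS161 and RVS167 went to 0.045 after median centring, to 0.016 without background correction, and was between -0.064 and 0.053 when 1 replicate was left out. Under the other settings the genes called higher numbered 17 to 22 and those called lower 6 to 9. Across every alternative run, single spots included, 6 of the 21 genes called higher (ARC18, VRP1, ENT2, YAP1801, MYO3 and ARK1) and 4 of the 8 called lower (END3, ENT1, MYO4 and BZZ1) kept their call. Changes of sign and calls kept under every alternative were not counted over all genes, so these counts cannot be called particular to the 40. TWF1 lost its call on 1 of its 2 spots alone (0.21, adjusted p = 0.0824 in limma). With the slide as the replicate, SRV2, PFY1, TPM2, RVS161 and RVS167 lost their calls. Which scaling is nearer to the RNA content of the cells was not tested. The dim chs2Δ channel limits PRK1 and ARK1.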
